A study of Homo sapiens with 6 samples.

Results

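Splicing factor proline and glutamine rich (SFPQ) belongs to the DBHS (Drosophila behaviour/human splicing) family of nuclear RNA-binding proteins, and its transcript was described here with those of 7 partners: the DBHS paralogs NONO and PSPC1, the nuclear long noncoding RNAs (lncRNAs) NEAT1 and MALAT1, and the RNA-binding proteins RBM14, MATR3 and TARDBP. The genes were chosen by symbol, and the 8 genes corresponded to 9 of the 60664 gene rows of the count table, since MATR3 has 2 Ensembl entries. Of these rows, 8 held enough reads to be among the 29022 rows tested. The question was whether cells depleted of SFPQ carry different amounts of the transcripts of these 7 partners. The osteosarcoma line U-2 OS, of human origin, was transfected with 30 nM of a control siRNA (siControl) or with 30 nM of siRNA against SFPQ (siSFPQ), with 3 biological replicates of each. By the labels both groups derived from the same line, carried no other modification and differed only in the siRNA. The time between transfection and harvest was not given in the sources used here, and a depleted culture still held some SFPQ transcript. Polyadenylated RNA was sequenced, and a value is the number of reads assigned to a gene.

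DBHS proteins pair with one another through shared RNA recognition motifs and a coiled coil, and SFPQ and NONO in particular act in transcription, splicing and DNA repair. Paraspeckles are nuclear bodies built on the lncRNA NEAT1, whose long form is the scaffold, and SFPQ, NONO and RBM14 are among the proteins needed to form them. They hold proteins and edited RNAs in the nucleus. MALAT1 is a nuclear lncRNA of the neighbouring nuclear speckles, encoded next to NEAT1.

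The family relationship is visible in the transcripts. The stretch below surrounds the longest identical run of SFPQ and PSPC1, which was 23 bases, and is shown with the NONO stretch most like SFPQ. Each stretch is 63 bases, is wholly coding, and is printed 5′ to 3′ from the canonical GENCODE 44 transcript (GRCh38), with the bases identical in all 3 genes in capitals.

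SFPQ: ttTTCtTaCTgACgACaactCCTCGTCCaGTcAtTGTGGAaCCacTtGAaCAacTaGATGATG
PSPC1: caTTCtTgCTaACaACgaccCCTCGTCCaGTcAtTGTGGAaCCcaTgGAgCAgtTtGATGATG
NONO: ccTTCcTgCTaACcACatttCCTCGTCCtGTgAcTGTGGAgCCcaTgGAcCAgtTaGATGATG

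SFPQ lies on the minus strand of chromosome 1, and its stretch occupied the last 16 bases of exon 3 (chr1:35190694-35190709) and the first 47 bases of exon 4 (chr1:35190547-35190593) of 10. The PSPC1 stretch joined exons 2 (chr13:19772242-19772257) and 3 (chr13:19759372-19759418) of 9 on the minus strand of chromosome 13. The NONO stretch joined exons 5 (chrX:71294513-71294528) and 6 (chrX:71296565-71296611) of 12 on the plus strand of the X chromosome. The exon junction thus fell after base 16 in each of the 3 paralogs. SFPQ shared 49 of the 63 bases with PSPC1 and 45 with NONO, PSPC1 and NONO shared 50, and 42 were identical in all 3. No window of 150 bases, the length of a read, was identical between the canonical transcripts of any pair of these paralogs, whose longest shared runs were 23 bases for SFPQ and PSPC1 and 15 bases for SFPQ and NONO as well as for NONO and PSPC1.

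All 6 libraries were of similar depth, with 46142855 to 47119203 assigned reads in siControl and 43469321 to 45543610 in siSFPQ, so that 3 counts corresponded to between 0.0637 and 0.069 CPM (counts scaled to a common library total). The markers COL1A1, SPARC, VIM and RUNX2 averaged 2594, 2099, 1039 and 58.9 CPM, while 2 further markers of the mesenchymal and osteoblast lineage were low, with COL1A2 at 0.961 CPM and TWIST1 at 0 counts in every library. The 7 markers of other cell types summed to 9.55 to 10.6 CPM in siControl and 9.79 to 10.5 CPM in siSFPQ, of which EPCAM made 4.8 CPM on average, and CD3E and ALB did not exceed 2 counts in any library. Of the 5 that could be tested, the epithelial marker CDH1 was higher in siSFPQ (50.4 ± 18.4 to 85.7 ± 12.5 normalized counts, log2 fold change 0.76, adjusted p = 0.00719) and the leukocyte marker PTPRC lower (31.7 ± 6.69 to 10.3 ± 4.73, -1.61, adjusted p = 0.00147). The cultures were of a single line, and CDH1 and PTPRC averaged only 1.49 and 0.46 CPM. In RNA from whole cultures, a change in the share of cells and a change in RNA per cell cannot be told apart. The transcriptome shifted broadly. At an adjusted p under 0.05, 22.4% of the tested genes were higher and 22.1% were lower in siSFPQ. With a log2 fold change past 1.5 in addition, 5.54% were higher and 4.77% lower. For 52.3% of tested genes, the normalized values of the 2 groups did not overlap. These percentages are the background against which the genes below are read.

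Depletion reached its target. SFPQ (ENSG00000116560, chr1:35176378-35193446) had 22338, 23139 and 21753 counts in siControl 1, 2 and 3, and 3140, 3863 and 3151 counts in siSFPQ 1, 2 and 3. After normalization, SFPQ fell from 22444 ± 666.0 to 3376 ± 356.4 (SD, n = 3 each), leaving 14.4%, 16.8% and 13.8% of the siControl mean in the 3 depleted cultures. The log2 fold change was -2.73 (SE 0.05, 95% interval -2.83 to -2.63, adjusted p = 6.33e-30). SFPQ was the 651st strongest fall of all tested genes. Its decrease is a check of the siRNA and its labels rather than a result.

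NONO (ENSG00000147140, chrX:71254814-71301522), the most common dimerization partner of SFPQ, did not change detectably. NONO counts were 34035, 34632 and 34880 under siControl against 33749, 35848 and 36574 under siSFPQ. After normalization, siSFPQ 1 lay below siControl 3, and the groups overlapped. Normalized counts were 34568 ± 440.0 and 35320 ± 667.1 (SD, n = 3 each), a 1.02-fold difference with a 95% interval of 0.974 to 1.07 (adjusted p = 0.504). With the library totals as the only scaling, in which the median log2 fold change of all tested genes moved from 0.019 to 0.083, NONO passed the threshold at a log2 fold change of 0.09 (adjusted p = 0.0143).

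PSPC1 (ENSG00000121390, chr13:19674752-19783019), the third DBHS paralog and a paraspeckle protein, rose in every depleted culture. The control cultures gave 3265, 3262 and 2947 reads of PSPC1, and the depleted cultures 6650, 7218 and 6968. Every depleted culture was above every control, at 216.9%, 223.3% and 217.3% of the control mean. Normalized counts rose from 3163 ± 180.0 to 6931 ± 114.1 (SD, n = 3 each), with a log2 fold change of 1.13 (SE 0.042, 95% interval 1.05 to 1.22, adjusted p = 2.28e-21), or 2.19-fold (95% interval 2.06 to 2.33). It was the 3440th largest rise among all tested genes, placing it in the top 11.9%, and stayed below the 1.5 threshold. With each library left out in turn, the log2 fold change ranged from 1.09 to 1.16. PSPC1 reads could be shared with few other rows: of the 2286 windows of 150 bases in its canonical transcript, 67 (2.93%) were also in the pseudogene PSPC1P1, which had at most 11 counts in any library. The antisense gene PSPC1-AS2 had 14, 7 and 6 counts in siControl and 3, 2 and 2 in siSFPQ (log2 fold change -1.89, adjusted p = 0.0565).

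**Figure D1:**
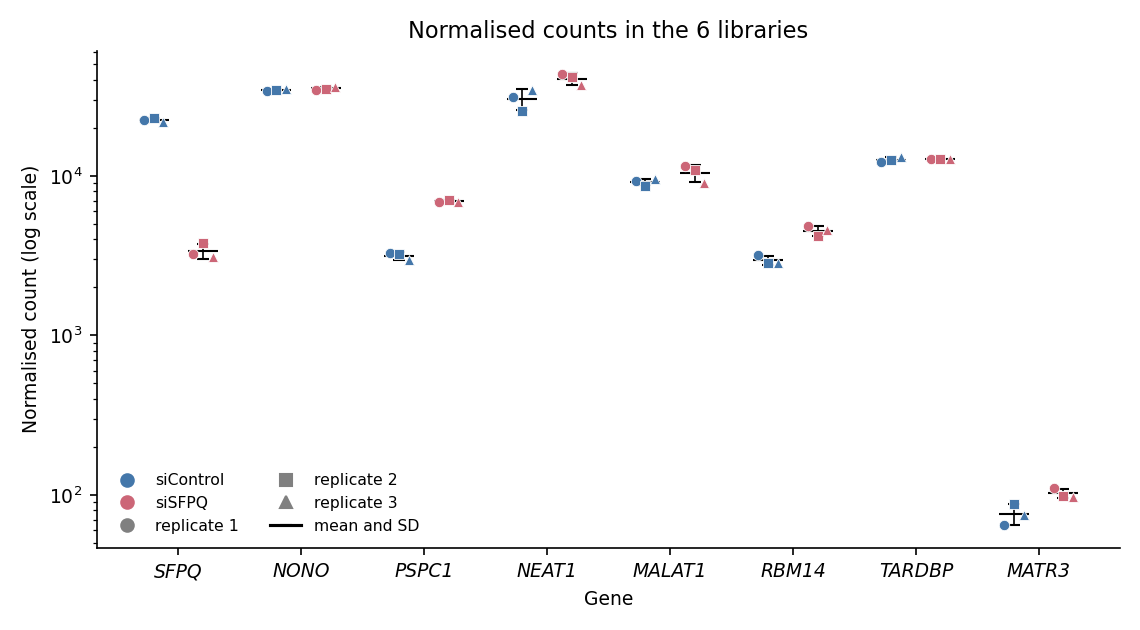
Normalised counts on a log axis for the 8 tested rows, with siControl in blue, siSFPQ in red, symbols for replicates 1 to 3, and black bars for the mean and SD of each group. SFPQ falls from 22444 to 3376, PSPC1 rises from 3163 to 6931, and the NONO and TARDBP points of both groups lie side by side.

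Within a library, the ratio of the paralogs to NONO does not depend on library size. PSPC1 per NONO, in counts per kb of annotated exon, was 0.223, 0.219 and 0.197 in controls, against 0.459, 0.469 and 0.444 after depletion. The ratio rose 2.15-fold, a difference of 1.1 on the log2 scale, with no overlap of the groups. SFPQ per NONO was 0.954, 0.971 and 0.907 in siControl and 0.135, 0.157 and 0.125 in siSFPQ, a log2 difference of -2.77. For either ratio the exact two-sided permutation test over libraries gave p = 0.1, the smallest value that 3 against 3 libraries allow.

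Levels of different genes were compared per kb of transcript, and the order depended on the length used. Per kb of all annotated exons, SFPQ, NONO and PSPC1 stood at 63.5 ± 1.89, 67.3 ± 0.857 and 14.4 ± 0.817 CPM per kb in siControl (SD, n = 3). In siSFPQ the levels were 9.56 ± 1.01, 68.8 ± 1.3 and 31.5 ± 0.518 CPM per kb. SFPQ and NONO were thus nearly level in control cells on this scale, with NONO the higher in each of the 3 libraries, and PSPC1 moved from the lowest place to above SFPQ after depletion. The sum of the 3 DBHS transcripts went from 145.2 ± 2.3 to 109.8 ± 1.54 CPM per kb, or 75.6% of control. Of that sum, SFPQ made 43.7% in siControl and 8.7% in siSFPQ, NONO 46.4% and 62.7%, and PSPC1 9.88% and 28.6%. SFPQ changed by -54 CPM per kb, PSPC1 by 17.1 and NONO by 1.46, so the sum changed by -35.4 CPM per kb.

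Per kb of the canonical transcript, a length added after the data were seen, NONO stood well above SFPQ in control cells, at 283.9 ± 3.61 against 131.2 ± 3.89 CPM per kb, with PSPC1 at 28.4 ± 1.62 (SD, n = 3). The sum went from 443.5 ± 4.77 to 372.0 ± 5.07 CPM per kb, which is 83.9% of control. On this scale SFPQ made 29.6% of the sum in siControl and 5.3% in siSFPQ, NONO 64.0% and 78.0%, and PSPC1 6.4% and 16.7%. On both scales the sum was lower in each siSFPQ library than in each siControl library, and the rise of PSPC1 was smaller than the loss of SFPQ.

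**Figure D2:**
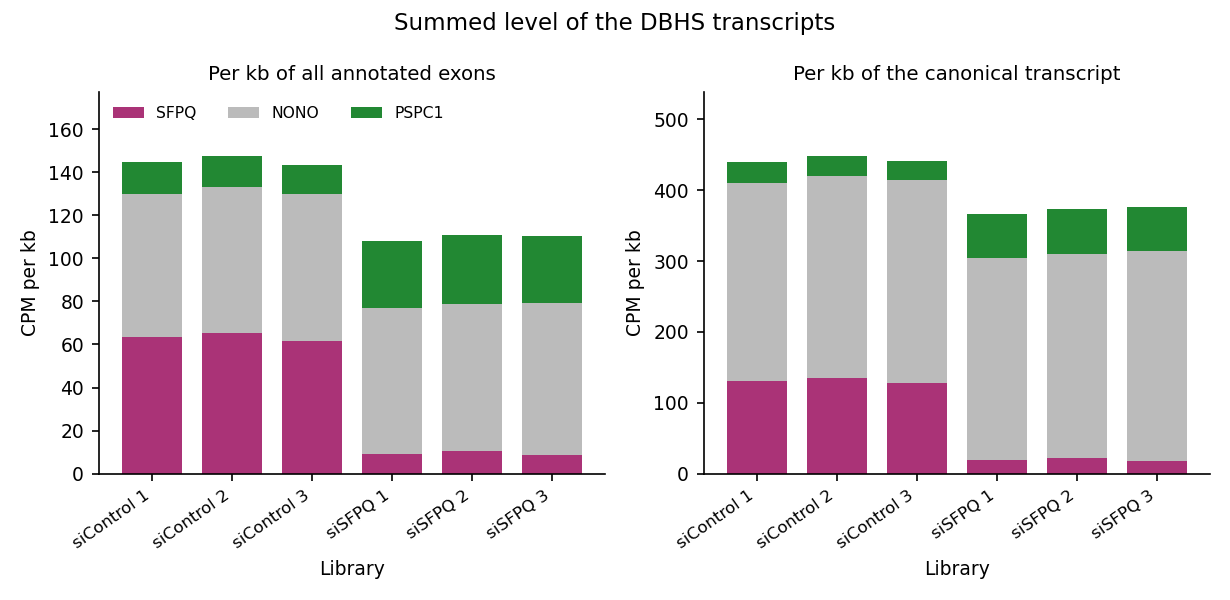
Stacked bars of the SFPQ, NONO and PSPC1 levels in each library, in CPM per kb of all annotated exons (left) and per kb of the canonical transcript (right). The SFPQ segment shrinks and the PSPC1 segment widens in all 3 siSFPQ libraries, while the total goes from 145.2 to 109.8 on the left and from 443.5 to 372.0 on the right.

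NEAT1 (ENSG00000245532, chr11:65422774-65445540, plus strand), the scaffold RNA of paraspeckles, was higher after SFPQ depletion. Control cultures 1, 2 and 3 yielded 31046, 25603 and 34432 NEAT1 reads, and depleted cultures 1, 2 and 3 yielded 42141, 42343 and 37442. All depleted cultures exceeded all controls, but the gap between siSFPQ 3 and siControl 3 was small beside the spread within either group. Normalized counts were 30411 ± 4501 and 40609 ± 3343 (SD, n = 3 each), which is a log2 fold change of 0.42 (SE 0.061, 95% interval 0.29 to 0.54, adjusted p = 6.51e-07), or 1.34-fold (95% interval 1.23 to 1.46). DESeq2, which estimated a larger error for NEAT1 (SE 0.14), gave the same fold change with an adjusted p of 0.00753, and leaving out 1 library moved the log2 fold change between 0.31 and 0.52. NEAT1 made 0.0673%, 0.0543% and 0.0735% of all assigned reads under siControl, compared with 0.0969%, 0.093% and 0.0822% under siSFPQ.

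Reads assigned to NEAT1 do not separate its short polyadenylated form from its long form, which ends in a triple helix instead of a poly(A) tail, and the libraries were made from polyadenylated RNA. The counts are therefore no measure of the long form alone. The share of reads from mitochondrial genes moved with NEAT1: it was 4.36%, 3.88% and 4.24% in siControl and 6.18%, 5.5% and 5.31% in siSFPQ. For both quantities siControl 2 was lowest and siSFPQ 1 highest, and the part of the mitochondrial share in the NEAT1 difference was not tested.

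MALAT1 (ENSG00000251562, chr11:65497640-65508073, plus strand) showed a smaller difference that depended on single libraries. MALAT1 reads numbered 9235, 8686 and 9515 in siControl, compared with 11132, 11143 and 9161 in siSFPQ. The first and second depleted cultures were above all controls, whereas siSFPQ 3 lay below siControl 1 and siControl 3 after normalization. Normalized counts were 9160 ± 434.8 and 10474 ± 1278 (SD, n = 3 each), which is a log2 fold change of 0.19 (SE 0.053, 95% interval 0.08 to 0.3, adjusted p = 0.00316), or 1.14-fold. The call was lost without siSFPQ 1 (0.14, adjusted p = 0.0724), without siSFPQ 2 (0.15, adjusted p = 0.0583) and in DESeq2 (0.19, adjusted p = 0.145). Of the annotated exon bases of MALAT1, 98.5% overlap no other gene on the same strand, but only 16.3% overlap none on either strand. No row was matched to the antisense gene TALAM1. The library kit marks strand, but whether the counting used it is not given in the sources used here.

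NEAT1 per MALAT1, in counts per kb, was 1.54, 1.35 and 1.66 in siControl and 1.73, 1.74 and 1.87 in siSFPQ. The ratio was thus higher in every depleted culture, by 1.18-fold or 0.24 on the log2 scale (exact two-sided permutation test, p = 0.1, the smallest possible). In siControl, NEAT1 stood at 29.2 ± 4.32 and MALAT1 at 19.2 ± 0.911 CPM per kb of annotated exon (SD, n = 3). In siSFPQ the levels were 39.0 ± 3.21 and 21.9 ± 2.68 CPM per kb. The libraries hold polyadenylated RNA, and how much of NEAT1 or of MALAT1 they captured was not measured. These levels and the ratio therefore describe the captured reads and not the abundance of either RNA.

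RBM14 (ENSG00000239306, chr11:66616626-66629934, plus strand), a coactivator with a prion-like domain that paraspeckle formation requires, rose with PSPC1 and NEAT1. RBM14 was counted 3184, 2858 and 2842 times in controls and 4718, 4319 and 4614 times in depleted cultures. The lowest depleted culture, siSFPQ 2, was still well above the highest control, siControl 1. Normalized counts rose from 2966 ± 194.2 to 4548 ± 319.9 (SD, n = 3 each), with a log2 fold change of 0.62 (SE 0.049, 95% interval 0.52 to 0.72, adjusted p = 1.23e-12), or 1.53-fold (95% interval 1.43 to 1.64). Leaving out each library in turn gave 0.58 to 0.67.

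RBM14 shares its 5′ end with a readthrough transcript, RBM14-RBM4, and 279 of the 5218 windows of 150 bases in its canonical transcript (5.35%) were also found there. The readthrough row had 21, 7 and 9 counts in siControl and 10, 8 and 17 in siSFPQ (log2 fold change -0.08, adjusted p = 0.92). The downstream gene RBM4, an RNA-binding splicing regulator, went the other way, with 502, 493 and 499 counts in siControl and 347, 369 and 346 in siSFPQ. All depleted cultures were below the controls for RBM4 (log2 fold change -0.50, SE 0.086, adjusted p = 1.22e-05), whereas its paralog RBM4B, also on the paraspeckle list, had a log2 fold change of 0.02 (adjusted p = 0.779).

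TARDBP (ENSG00000120948, chr1:11012344-11030528, plus strand), which encodes the splicing repressor TDP-43, gave 12200, 12542 and 13088 counts under siControl and 12366, 12980 and 12862 under siSFPQ. The normalized values of siSFPQ lay inside the range of siControl. Normalized counts were 12629 ± 456.2 and 12714 ± 35.5 (SD, n = 3 each), a 1.01-fold difference with a 95% interval of 0.956 to 1.06 (adjusted p = 0.866).

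MATR3, a nuclear matrix RNA-binding protein, could not be measured from these counts. Its row ENSG00000015479 (chr5:139293674-139331677, plus strand) had 65, 88 and 75 counts in siControl and 107, 101 and 99 in siSFPQ, and the row ENSG00000280987 (chr5:139273752-139331671) had 1 count in siControl 1, 1 in siSFPQ 1 and 0 in the others. Of the 4920 windows of 150 bases in the canonical transcript of the first row, 4704 (95.6%) were also in that of the second, and only 57.4% and 7.6% of the annotated exon bases of these rows belonged to no other gene. At 0.138 ± 0.0208 CPM per kb in siControl the first row stood far below the 44.6 ± 1.61 CPM per kb of TARDBP (SD, n = 3 each, per kb of annotated exon). The counts that remained were higher in all siSFPQ libraries, with a log2 fold change of 0.42 (SE 0.18, 95% interval 0.06 to 0.79) that missed the threshold (adjusted p = 0.0514) and passed it without siControl 2 (0.54, adjusted p = 0.0262). They are reported as uncertain.

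Of the 8 tested rows, 4 rose (PSPC1, RBM14, NEAT1 and MALAT1), beside 22.4% of all tested genes, and 1 of 8 fell (SFPQ itself), beside 22.1%. The 3 others, NONO, TARDBP and MATR3, did not pass the test. None rose past a log2 fold change of 1.5, beside 5.54% of all genes, and SFPQ alone fell past it, beside 4.77%. In 5 of 8 rows the groups did not overlap, beside 52.3% of all genes, a share near the background. These genes are read deeply, and deeper genes were called more often: among the 10216 tested genes with a mean of at least 10 CPM, 31.4% were higher and 38.8% were lower, with a median log2 fold change of -0.03.

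**Figure D3:**
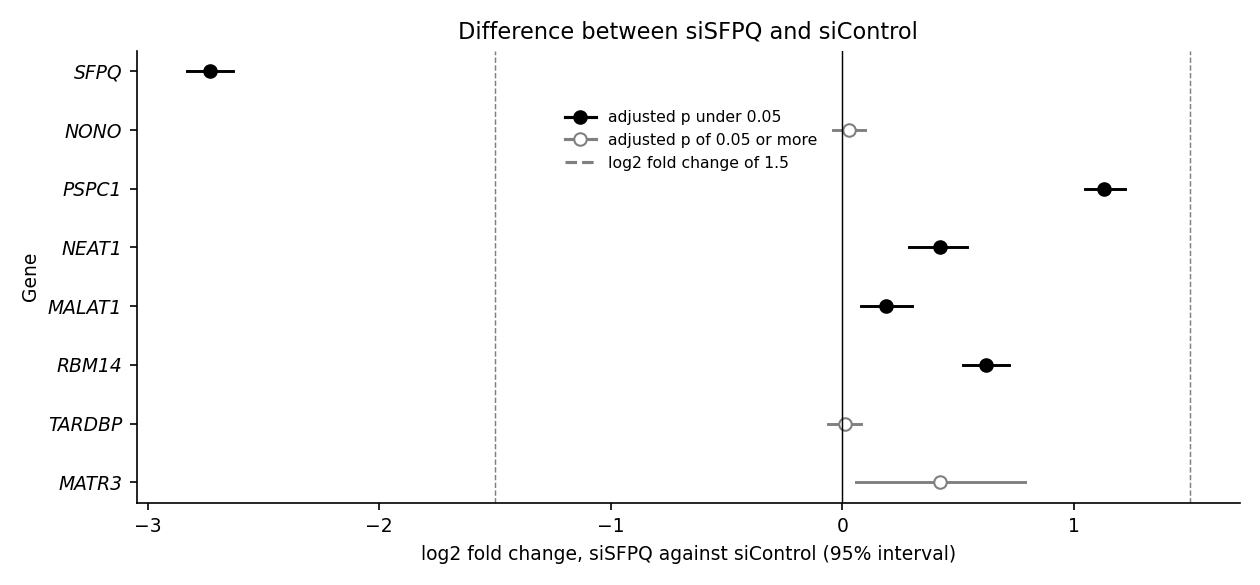
Log2 fold change of siSFPQ against siControl with its 95% interval for the 8 tested rows, filled where the adjusted p was under 0.05 and open where it was not, with dashed lines at 1.5 in either direction. PSPC1 at 1.13 and RBM14 at 0.62 have the largest rises, and the intervals of NONO and TARDBP include 0.

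The order of levels per kb of annotated exon in siControl was NONO (67.3), SFPQ (63.5), TARDBP (44.6), NEAT1 (29.2), MALAT1 (19.2), PSPC1 (14.4), RBM14 (10.0) and MATR3 (0.138 CPM per kb). In siSFPQ, PSPC1 (31.5) passed MALAT1 (21.9), RBM14 stood at 15.3 and SFPQ dropped to 9.56. Only the MATR3 row was lower, and MATR3 could not be measured from these counts. Per kb of the canonical transcript, NEAT1 at 29.2 ± 4.33 and PSPC1 at 28.4 ± 1.62 CPM per kb did not differ beyond their spread in siControl (SD, n = 3). After depletion PSPC1 stood at 62.2 ± 1.02 and NEAT1 at 39.0 ± 3.21 on that scale. The NEAT1 lengths used, 22767 bases of exon and 22743 of canonical transcript, are those of the long form. Its reads do not separate the forms, so the place of NEAT1 in these orders depends on that length.

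Promoter sequences are shown for PSPC1 and RBM14, which had the largest rises, and for the paralog NONO. RefSeq promoter windows of 300 bases (GRCh38.p14) were matched for 6 of the 8 genes, all but SFPQ and NEAT1. The first 280 bases of the PSPC1, RBM14 and NONO windows are printed 5′ to 3′ on the gene's strand, from 250 bases before the start site, with every match to a searched motif in capitals. PSPC1 is at chr13:19782916-19783195 (minus strand), RBM14 at chr11:66616380-66616659 and NONO at chrX:71283385-71283664 (both plus strand).

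PSPC1: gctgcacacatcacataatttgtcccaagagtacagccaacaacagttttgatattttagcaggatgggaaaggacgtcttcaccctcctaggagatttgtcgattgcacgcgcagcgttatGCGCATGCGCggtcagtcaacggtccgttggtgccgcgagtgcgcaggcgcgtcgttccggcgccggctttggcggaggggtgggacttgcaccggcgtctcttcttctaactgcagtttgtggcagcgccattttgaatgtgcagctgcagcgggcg
RBM14: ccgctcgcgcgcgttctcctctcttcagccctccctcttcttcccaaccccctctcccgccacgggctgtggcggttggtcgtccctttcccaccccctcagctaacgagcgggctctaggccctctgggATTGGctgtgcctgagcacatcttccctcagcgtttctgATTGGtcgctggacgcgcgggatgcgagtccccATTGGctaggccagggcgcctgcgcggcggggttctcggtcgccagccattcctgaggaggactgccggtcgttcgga
NONO: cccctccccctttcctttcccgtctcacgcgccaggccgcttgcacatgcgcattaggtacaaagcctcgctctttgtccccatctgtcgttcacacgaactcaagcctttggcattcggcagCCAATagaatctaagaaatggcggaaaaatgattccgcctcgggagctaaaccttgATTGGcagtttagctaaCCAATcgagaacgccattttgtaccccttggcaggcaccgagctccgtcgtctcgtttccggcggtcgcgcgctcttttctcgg

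The motifs searched, on both strands, were the GC box GGGCGG (in 45.0% of 35116 promoter windows of the same length), the CCAAT box (34.6%), the TATA box TATAAA (11.5%), the E-box CACGTG (7.26%) and the core of the NRF1 palindrome, GCGCATGC (3.05%). PSPC1 held GCGCATGC on both strands, at overlapping positions -128 and -126, and none of the other motifs. RBM14 held CCAAT on the opposite strand (printed as ATTGG) at -120, -81 and -48, and NONO held CCAAT at -127 and -54 and its complement at -71. Of the windows that are not printed, the first of 2 for MALAT1 held 5 matches to GGGCGG and the second a TATAAA at -30. The TARDBP window held 1 GGGCGG match, at -29, and 1 of the 2 MATR3 windows held 3. These matches are a description of the windows, and their part in any difference was not tested.

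The profile across the 6 libraries was compared with that of 10215 other genes of at least 10 CPM, as the distance between centred log2 CPM values. Closest to SFPQ were BMPR2, a bone morphogenetic protein receptor (distance 0.13), the cell adhesion gene FLRT2 (0.139) and the latrophilin ADGRL3 (0.162), with log2 fold changes of -2.66, -2.9 and -2.86. Closest to PSPC1 were CDR2L (0.0585), the agrin receptor gene LRP4 (0.0673) and the estrogen receptor gene GPER1 (0.0724), with log2 fold changes of 1.12, 1.16 and 1.14. NEAT1 was closest to MTATP6P1 (0.112), FCHSD1 (0.145) and MTCO1P12 (0.156), with log2 fold changes of 0.46, 0.43 and 0.49, and the first and the last of these are nuclear pseudogenes of mitochondrial genes, whose reads are hard to tell from those of their mitochondrial copies. A distance over 6 libraries includes the difference between the groups, so these neighbours are a description.

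Other genes of the same nuclear bodies were taken from 7 lists. Among 32 other paraspeckle proteins, all tested, 11 rose, 9 fell and 12 did not pass the test, with a median log2 fold change of 0.06 beside 0.019 over all tested genes. The shares were 34.4% higher and 28.1% lower, beside 22.4% and 22.1% of all tested genes. Among genes of at least 10 CPM, 31.4% were higher and 38.8% were lower. RBM12, an RNA-binding protein, rose from 6566 ± 49.5 to 10135 ± 240.4 normalized counts (0.63, adjusted p = 5.56e-16), and HNRNPF, which binds G-rich RNA in splicing, from 20460 ± 932.8 to 26509 ± 525.2 (0.37, adjusted p = 2.27e-10). RBM3, a cold-inducible RNA-binding protein, fell from 10217 ± 293.8 to 4810 ± 253.9 (-1.09, adjusted p = 2.54e-21), and HNRNPH1, a close relative of HNRNPF, from 18484 ± 898.7 to 14320 ± 591.5 (-0.37, adjusted p = 1.29e-09). HNRNPK, which acts in the processing of NEAT1, had a log2 fold change of -0.05 (adjusted p = 0.292) and DAZAP1 0.04 (adjusted p = 0.403). SMARCA4, a chromatin remodeller, rose by 0.17 (adjusted p = 0.00117). The only list member past 1.5 was ENOX1, a thiol oxidoreductase, which fell from 72.4 ± 11.7 to 10.2 ± 7.83 normalized counts (-2.8, adjusted p = 2.79e-08) and was named after its value was seen, as were HNRNPK, DAZAP1 and SMARCA4. With the library totals as the only scaling, 18 members of this list were higher instead of 11.

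Of 14 nuclear speckle proteins, 3 rose, 7 fell and 4 did not pass, with a median log2 fold change of -0.09. Beside them, 22.4% of all tested genes were higher and 22.1% lower. For genes of at least 10 CPM, falls were also the more common, with 31.4% higher and 38.8% lower. SRSF4, a serine and arginine rich splicing factor, fell most, from 3782 ± 160.5 to 1714 ± 105.5 normalized counts (-1.14, adjusted p = 7.55e-20), and SRSF5 fell by 0.29 (adjusted p = 7.94e-07). RBM25, a splicing regulator, rose by 0.43 (adjusted p = 1.48e-11), and SRRM2, a scaffold of speckles, by 0.22 (adjusted p = 8.65e-05).

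The 12 factors that form or bind the 3′ ends of NEAT1 and MALAT1 (RNase P, RNase Z and a triple-helix binder) split evenly, with 3 higher, 3 lower and 6 that did not pass (median 0.14). All tested genes split nearly evenly as well, with 22.4% higher and 22.1% lower, so the split does not set these factors apart. The RNase P subunits POP5 and POP4 fell by 0.29 and 0.23 (adjusted p = 0.000225 and 8.18e-05), while the RNase Z gene ELAC2 and the subunit POP1 rose by 0.31 and 0.27 (adjusted p = 1.84e-07 and 0.000777). All 5 genes of RNA editing and nuclear retention passed the test, 2 upward and 3 downward (median -0.27). Calls were common at such depth, with 31.4% higher and 38.8% lower among genes of at least 10 CPM. The shares were 22.4% and 22.1% of all tested genes. With 5 genes, nothing particular to this list can be read from the count. The editing enzyme ADARB1 fell from 1100 ± 52.5 to 745.6 ± 25.5 normalized counts (-0.56, adjusted p = 8.29e-09), and STAU1, which binds double-stranded RNA and competes for retained transcripts, from 14024 ± 530.7 to 9984 ± 161.2 (-0.49, adjusted p = 4.21e-13). ADAR, the major editing enzyme, rose by 0.11 (adjusted p = 0.0124), and SLC7A2, a cationic amino acid transporter, by 0.20 (adjusted p = 0.00353).

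Of 6 nuclear matrix RNA-binding proteins, AKAP8 rose by 0.45 (adjusted p = 5.38e-09) and SAFB2 by 0.21 (adjusted p = 0.000434), HNRNPU fell by 0.15 (adjusted p = 0.000632) and PTBP1 by 0.11 (adjusted p = 0.0137), and in all 3 were higher and 2 lower (median 0.07). This count of 6 genes stands beside 22.4% higher and 22.1% lower of all tested genes. It stands beside 31.4% and 38.8% of those of at least 10 CPM. Among 12 other known lncRNAs, 11 were tested, of which 2 rose, 6 fell and 3 did not pass (median -0.22), so that the rise of NEAT1 was not shared by most of them. The shares were 18.2% and 54.5%, beside 22.4% and 22.1% of all tested genes. Among genes of at least 10 CPM the shares were 31.4% and 38.8%. MIAT fell from 2653 ± 92 to 1158 ± 133.6 normalized counts (-1.2, adjusted p = 5.4e-18) and CRNDE by 0.30 (adjusted p = 0.000201), while the snoRNA host genes GAS5 and SNHG1 rose by 0.54 and 0.20 (adjusted p = 4.38e-12 and 0.000401).

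The annotated neighbours of NEAT1 and MALAT1 on 11q13 were also higher. All 4 that could be tested were higher (median 0.43), beside 22.4% of all tested genes and 31.4% of those of at least 10 CPM. In each the groups did not overlap, which also held for 52.3% of all tested genes. LTBP3, a latent TGF-beta binding protein, rose from 3233 ± 242.2 to 5919 ± 250.4 normalized counts (0.87, adjusted p = 3.26e-17), and SLC25A45, a mitochondrial carrier, from 327.9 ± 32 to 508.6 ± 46.3 (0.63, adjusted p = 1.16e-06). FRMD8, named after its value was seen, rose by 0.22 (adjusted p = 5.18e-05). The difference of LTBP3 was larger than that of NEAT1 itself, and with 4 genes in a list chosen by position nothing particular to the locus can be read from the count.

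**Figure D4:**
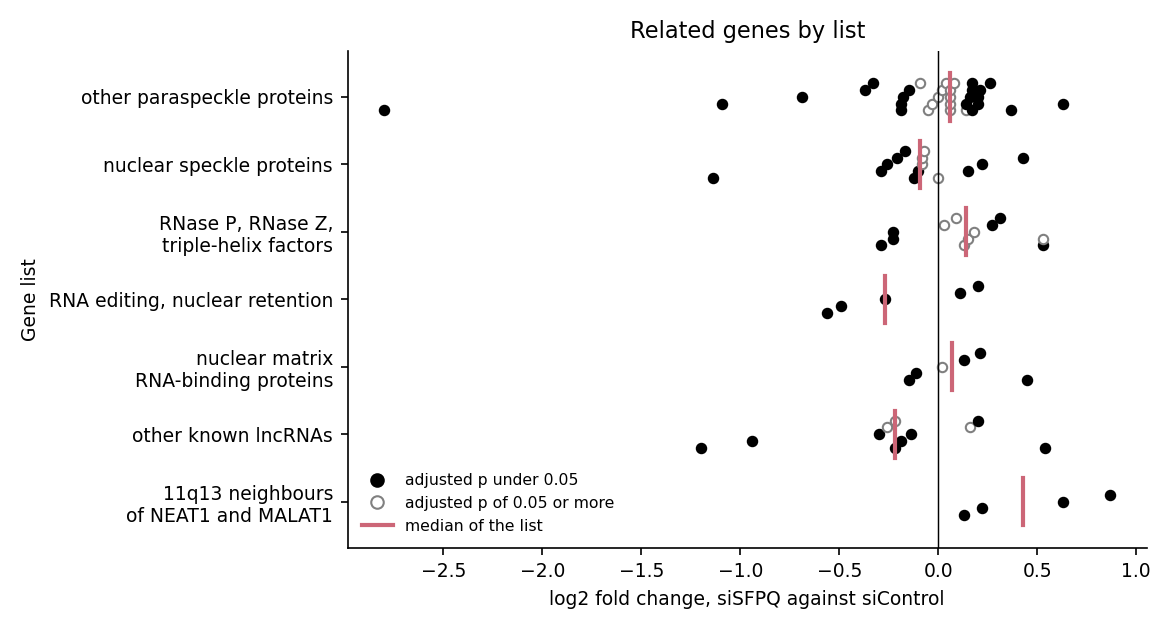
Log2 fold change of siSFPQ against siControl for every tested gene of the 7 lists, with filled points at an adjusted p under 0.05 and a red line at the median of each list. Paraspeckle and speckle proteins scatter on both sides of 0, with medians of 0.06 and -0.09, and the 4 neighbours of NEAT1 and MALAT1 all lie above 0.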

How the data were processed

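RNA sequencing was performed on 3 siControl and 3 siSFPQ cultures of U-2 OS cells. The authors prepared stranded poly(A) libraries (TruSeq), checked reads with FastQC, aligned them with STAR 2.7.9a to Ensembl GRCh38 and deposited raw counts of reads per gene, with no normalization. For these libraries the sources used here date the Ensembl files but give neither their release number nor the strand setting of the counting. All 6 columns of the table were used.

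Gene IDs were matched to GENCODE 44 (99.7% of 60664 rows). The quasi-likelihood test of edgeR 4.0.16 (R 4.3.3; two-sided, TMM factors, condition as the only term) was run on the 29022 genes that reached 10 counts over all libraries, and p-values were adjusted over these by Benjamini-Hochberg. The script was tested on simulated data. Normalized counts are counts divided by effective library size, multiplied by the geometric mean of these sizes, and CPM uses the same effective sizes. Alternatives were DESeq2 1.42.0, other filters and scalings, a replicate block and each library left out. These 6 libraries are biological replicates by the study's methods. The p-values and intervals rest on a spread between libraries that is moderated across genes. They are thus not the spread of each gene's own replicates. The SE was 0.061 in edgeR and 0.14 in DESeq2 for NEAT1, 0.053 and 0.11 for MALAT1, and 0.034 and 0.029 for NONO. The 3-count floor is relative to library totals and covers counting error only.

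Genes were named by rule: all rows of the 8 genes, their pseudogene, readthrough and antisense rows, RBM4 and RBM4B, from each list the 2 largest rises and the 2 largest falls averaging 5 CPM or more, and the 3 nearest profiles of SFPQ, PSPC1 and NEAT1 (genes of at least 10 CPM, pseudocount 0.5). The members and lists were chosen with earlier results of these data known. Read windows of 150 bases were compared between canonical transcripts by exact match. Single values of some list genes are not reported here.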

Additional observations from a re-analysis of the deposited data

How the results depend on the processing

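Of 312 values recomputed under an alternative, 297 kept their direction and side of the threshold, or stayed within 1.5 times the count. The 297 include values that could not change. For the within-library ratios, omitting the exon length or adding a replicate block returns the main difference by construction. The calls on SFPQ, PSPC1, NEAT1 and RBM14 held in all 12 alternatives run for each. With the library totals as the only scaling, NONO (0.09) and MATR3 (0.49) passed the threshold, 18 other paraspeckle proteins and 6 RNase P, RNase Z and triple-helix factors were higher, and 1 nuclear matrix protein was lower. This scaling moved the median of all genes to 0.083. DESeq2 gave MALAT1 0.19 without a call, and filtering by expression gave MATR3 0.43 with one. TARDBP turned sign at -0.00061 with no filter beyond 1 count. With 1 library left out, the log2 fold change of MALAT1 ranged from 0.14 to 0.3, that of MATR3 from 0.32 to 0.54 and that of TARDBP from -0.01 to 0.04 (-0.0046 without siSFPQ replicate 2), the RNA editing genes called higher from 1 (without siControl 3) to 2, and the nuclear matrix genes called lower from 1 (without siControl 2) to 2. Apart from the differences made by construction, the cause was not tested.

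Deviations of same-numbered libraries correlated at 0.001, 0.0734 and 0.0456, and those of differently numbered libraries at -0.0675 to 0.0217. With 3 libraries per group, such values cannot show whether same-numbered cultures were handled together. A replicate block gave SFPQ -2.74, PSPC1 1.13, NEAT1 0.42 and MALAT1 0.19, with 6530 genes higher and 6424 lower in place of 6514 and 6421. At this depth, rows such as MATR3, with at most 107 counts in a library, resolve only large differences.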

Other observations

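Among the rows related to the members by name, NONOP2, a processed pseudogene of NONO, had 39, 42 and 38 counts in siControl and 16, 22 and 26 in siSFPQ. All depleted cultures were lower (log2 fold change -0.90, SE 0.31, adjusted p = 0.0175), whereas NONO itself had a log2 fold change of 0.03. No window of 150 bases of the canonical NONO transcript was also in NONOP2, and the longest shared run was 31 bases. TARDBPP4 had 2, 6 and 10 counts in siControl and 11, 11 and 18 in siSFPQ, and did not pass the test (1.13, adjusted p = 0.132). MATR3P3, TARDBPP2 and MATR3P2 had at most 29, 15 and 5 counts in a library and did not pass either (adjusted p = 0.843, 0.718 and 0.777).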
